A study of Homo sapiens with 2 samples.

Results

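Polyamines are the small cations putrescine, spermidine and spermine, and the genes described here make them, break them down or set the activity of the first enzyme of their synthesis. The members were taken by symbol from the deposited tables, and all 10 of the listed genes were found among 47161 listed symbols. They are ODC1, AMD1, SRM and SMS for synthesis, SAT1, SMOX and PAOX for catabolism, and OAZ1, OAZ2 and AZIN1 as regulators of ornithine decarboxylase. All 10 reached 1 RPKM (reads per kilobase, scaled to the mapped total) in at least 1 library, as did 15440 genes in all. PAOX had no row of its own and was read from a row joined with its neighbour MTG1, a mitochondrial GTPase, so its own level is not known. AZIN1 had 3 rows, which were summed.

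The cells were C4-2B, an androgen-independent prostate cancer line that descends from LNCaP cells and is labelled as bone-metastatic and castration-resistant. One group received DMSO as vehicle and the other 2.5 µM MA4-022-1, which the labels call a combined inhibitor of BET bromodomain proteins and kinases. How long the cells were exposed is not stated in the labels. Each group held 1 library of total RNA depleted of ribosomal RNA, so differences could not be set against a spread between replicates, and no test was made. In bulk RNA a lower level in each cell and fewer cells with the message cannot be told apart. Steps in the low values placed the totals at 27144324 reads for vehicle and 19912468 for MA4-022-1. All 10 prostate epithelial markers looked at stood at 31.7 RPKM or more in both libraries, with KLK2 and KLK3 in a joint row. Basal (TP63, KRT5, KRT14) and endothelial (PECAM1, VWF, CDH5) markers stood at 0.846 RPKM or less. Of the leukocyte markers PTPRC, CD3E and CD14 stood at 0.192 RPKM or less, and CD68 shared a row with EIF4A1 and could not be read. Among 6 fibroblast markers COL1A1 stood at 1.19 RPKM in vehicle and 5.03 with MA4-022-1, while the other 5 stood at 0.858 RPKM or less.

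Synthesis starts when ornithine decarboxylase, the product of ODC1, turns ornithine into putrescine. AMD1 encodes the decarboxylase that prepares S-adenosylmethionine as the donor of aminopropyl groups, and spermidine synthase (SRM) and spermine synthase (SMS) add those groups in turn. SAT1 encodes the acetyltransferase that marks spermidine and spermine for export or oxidation, PAOX oxidises the acetylated forms and SMOX oxidises spermine directly. Antizymes bind ornithine decarboxylase and send it to the proteasome, and AZIN1, an inactive relative of that enzyme, takes the antizymes away from it. Prostate epithelium secretes large amounts of spermine, and prostate tissue is known for high polyamine synthesis.

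Several of these messages carry short elements through which the pathway is known to be controlled, and they are shown because RNA levels alone do not report them. Antizyme is made only when ribosomes shift frame by a base at a stop codon, and high polyamine favours that shift. The annotated coding sequences of OAZ1 and OAZ2 in GENCODE release 29 skip 1 base at this place, in 2 OAZ1 transcripts and 3 OAZ2 transcripts. The stretch was read from transcripts of the same genes that keep the base, and the capitals mark the last codon before the shift and the stop codon.
OAZ1, chr19:2271428-2271457, GRCh38, plus strand: cctcggtggtgcTCCTGAtgcccctcaccc
OAZ2, chr15:64691501-64691530, GRCh38, minus strand: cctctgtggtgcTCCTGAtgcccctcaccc
Of the 30 bases, 29 were identical in OAZ1 and OAZ2. AMD1 carries a short upstream open reading frame in its leader, known to hold back translation when polyamines are plentiful. A search of the first bases of the RefSeq transcript starts found it as 6 sense codons and a stop, 21 bases long, with its start and stop codons in capitals.
AMD1, chr6:110874796-110874816, GRCh38.p14, plus strand: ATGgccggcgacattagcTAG

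ODC1, SRM and AMD1 are known targets of the transcription factor MYC, which binds the motif CACGTG. MYC stood at 78.5 RPKM in vehicle and 33.7 with MA4-022-1, a log2 ratio of -1.20. RefSeq start windows of 300 bases, 250 before a gene's start and 50 after it, on GRCh38.p14 were found for 7 of the 10 members, with none for SMOX, PAOX or AZIN1. CACGTG, which reads the same on both strands, was present in windows of 2 of these 7 genes, ODC1 and SRM, against 8.77% of 27305 genes with such windows. That share was not matched for G and C content, which ran from 65.3% to 82.0% in the member windows. ODC1 held CACGTG at 2 places, both at its downstream start, the first 29 bases before that start. In SRM it lay 199 bases before the start. The motif is in capitals.
ODC1, chr2:10448024-10448053, minus strand: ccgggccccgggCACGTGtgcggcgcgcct
ODC1, chr2:10447990-10448019, minus strand: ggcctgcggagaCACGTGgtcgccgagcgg
The 250 bases before the starts of SRM and SAT1 are printed as a window with the motif and one without it, and the pair was chosen with their ratios known. The windows of SMS and AMD1, which were also lower with MA4-022-1, held no CACGTG, and neither did those of OAZ1 and OAZ2. Both stretches were rich in G and C, at 82.0% for SRM and 66.4% for SAT1, and CACGTG is found in the SRM stretch and not in these SAT1 letters.
SRM, chr1:11060019-11060268, minus strand: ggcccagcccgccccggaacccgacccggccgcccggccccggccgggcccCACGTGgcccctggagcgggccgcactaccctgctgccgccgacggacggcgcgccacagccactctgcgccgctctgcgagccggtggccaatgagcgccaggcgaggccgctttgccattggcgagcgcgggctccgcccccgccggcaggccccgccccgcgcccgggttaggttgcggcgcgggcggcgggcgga
SAT1, chrX:23782923-23783172, plus strand: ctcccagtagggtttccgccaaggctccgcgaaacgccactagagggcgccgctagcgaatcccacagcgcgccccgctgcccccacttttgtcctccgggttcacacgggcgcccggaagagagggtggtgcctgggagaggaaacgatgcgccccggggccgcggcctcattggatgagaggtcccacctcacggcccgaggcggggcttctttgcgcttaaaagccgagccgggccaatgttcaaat
The sequence TATAA or its reverse complement was present in windows of 3 of the 7 genes, ODC1, AMD1 and OAZ1, against 24.2% of all genes with windows. In ODC1 it lay 32 bases before the upstream start, not at the downstream start that held CACGTG. In AMD1 it lay 28 and 29 bases before neighbouring starts, and in OAZ1 after the start, within the transcript. These matches describe letters and not binding. Whether MYC or these motifs had a part in any of the differences was not tested.

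The 4 synthesis genes were all lower in the MA4-022-1 library and the 3 catabolism rows all higher. Each difference is the log2 of RPKM + 1 with MA4-022-1 divided by RPKM + 1 in vehicle. Folds are given on the same scale, and the added 1 makes them too small for genes of low level. The median log2 ratio was -0.82 over the 4 synthesis genes and 0.85 over the 3 catabolism rows, a distance of -1.68. The catabolism median is the value of SMOX alone, which stood at only 0.909 RPKM in vehicle and 2.45 with MA4-022-1. That median, and with it the distance, thus depends on the added 1. It was 1.34 with 0.1 added and 0.33 with 5 added. The 3 regulators had a median of 0.25. Over all 15440 expressed genes the median was -0.02, and over 9839 protein-coding ones -0.10. Of the 10 members 2, SAT1 and OAZ2, were at least 2-fold higher, beside 7.73% of all expressed genes and 4.12% of the protein-coding ones. None of the 10 was at least 2-fold lower, beside 9.56% of all expressed genes and 9.5% of the protein-coding ones. At 1.5-fold, 3 were lower (ODC1, SMS and SRM), beside 20.6% of expressed genes and 21.9% of protein-coding ones, and 3 were higher (SAT1, OAZ2 and SMOX), beside 18.8% and 13.2%. A ratio below 0 was found in 4 of the 10 members, in 51.1% of expressed genes and in 55.8% of the protein-coding ones.

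**Figure D1:**
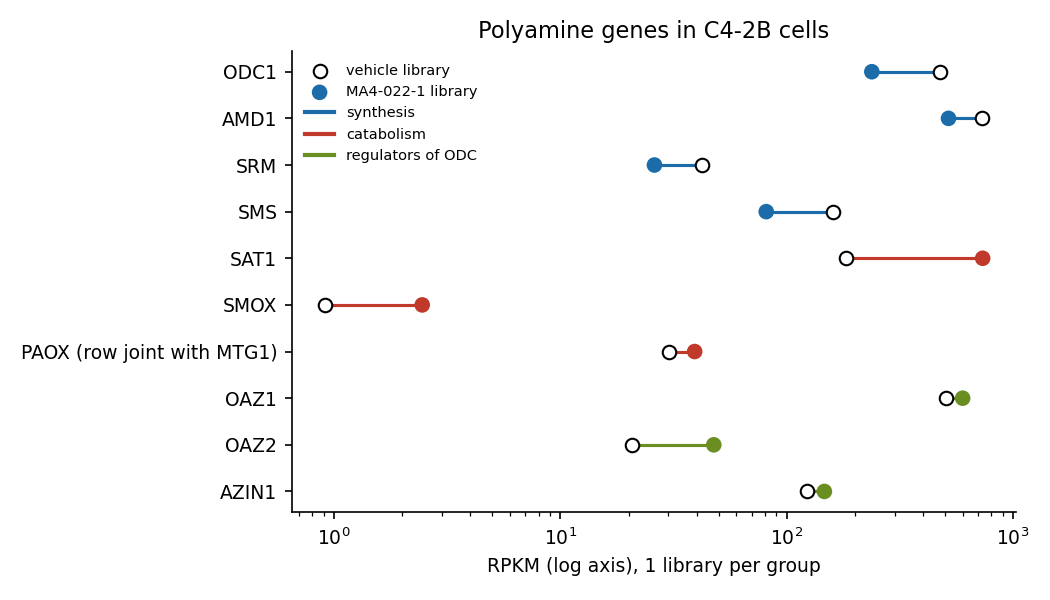
RPKM of each member on a log axis, with an open circle for the vehicle library and a filled circle for the MA4-022-1 library, coloured by role. The 4 synthesis genes lie to the left of their vehicle value and the other 6 rows to the right, with SAT1 moving from 182 to 735 RPKM.

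ODC1 (chr2:10580094-10595678, hg19, as are all loci below) stood at 474 RPKM in vehicle and 238 RPKM with MA4-022-1. The log2 ratio was -0.99 and the fold 1.99 lower, just short of the 2-fold limit. The RPKM ratio was 0.501 with a 95% counting interval of 0.490 to 0.513, so counting error alone leaves the side of that limit undecided. Such intervals use read numbers estimated from depth and transcript length and cover counting error only, not the spread between cultures. SMS (chrX:21958691-22025798) was close behind, at 160 RPKM in vehicle and 81.2 RPKM with MA4-022-1. Its log2 ratio was -0.97 and its RPKM ratio 0.509, with an interval of 0.484 to 0.535. ODC1 and SMS, which encode the first and last enzymes of the route to spermine, thus had nearly the same ratio, and their intervals overlapped.

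SRM (chr1:11114577-11120081), the spermidine synthase gene, stood at 42.4 RPKM in vehicle and 26.0 RPKM with MA4-022-1. Its log2 ratio was -0.68, and the counting interval of its RPKM ratio ran from 0.555 to 0.680. AMD1 (chr6:111195784-111217119) was the most abundant member in the vehicle library, at 732 RPKM, and stood at 519 RPKM with MA4-022-1. At a log2 ratio of -0.49 it was 1.41-fold lower, the smallest difference of the 4 synthesis genes, and its interval of 0.700 to 0.720 lay apart from those of the other 3. Summed over the 4 genes, RPKM was 1408 in vehicle and 864 with MA4-022-1. Of expressed protein-coding genes, 9.62% had a lower ratio than ODC1, 17.9% than SRM and 26.0% than AMD1. The synthesis genes therefore lay on the lower side of the distribution without being among its extremes.

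SAT1 (chrX:23801290-23804343) is the gene of spermidine and spermine acetylation, the rate-limiting step of catabolism. It stood at 182 RPKM in vehicle and 735 RPKM with MA4-022-1, a log2 ratio of 2.01. The RPKM ratio was 4.04 with a counting interval of 3.88 to 4.20. In the vehicle library SAT1 was the fourth of the members by RPKM, behind AMD1, OAZ1 and ODC1, and in the MA4-022-1 library it was the first. Of 9839 expressed protein-coding genes 38 had a higher ratio, or 0.386%. No other row carried exactly the same locus as SAT1, SMOX, AMD1, SRM or SMS. The locus of ODC1 was shared with 3 other rows and that of OAZ1 with 2. The locus of OAZ2 was shared with 3 and that of the joint PAOX row with 7. Rows of other coordinates that overlap these loci were not looked for. Strand use in the counting is not stated, so reads of overlapping genes at shared loci may not be told apart.

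SMOX (chr20:4101627-4168394), which encodes spermine oxidase, was the least abundant member. It stood at 0.909 RPKM in vehicle and 2.45 RPKM with MA4-022-1, or about 49 and 97 reads. The log2 ratio of RPKM + 1 was 0.85, short of 2-fold, whereas the ratio of the RPKM values themselves was 2.70 with an interval of 1.89 to 3.89. Whether SMOX lay past 2-fold therefore turned on the added 1 RPKM and was within counting error. The joint row of MTG1 and PAOX (chr10:135192695-135383462) stood at 30.3 RPKM in vehicle and 39.2 RPKM with MA4-022-1, a log2 ratio of 0.36. PAOX and MTG1 cannot be told apart there, and without that row the catabolism median was 1.43, over SAT1 and SMOX alone. SAT1 was 201 times SMOX by RPKM in vehicle and 300.2 times with MA4-022-1, so SAT1 was by far the more abundant of these catabolic messages.

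The regulators split by size. OAZ2 (chr15:64979772-65011801), scarcer than OAZ1, stood at 20.8 RPKM in vehicle and 47.6 RPKM with MA4-022-1. It was 2.23-fold higher, with an RPKM ratio of 2.29 and a counting interval of 2.10 to 2.49. OAZ1 (chr19:2252252-2273487), the main antizyme, stood at 506 RPKM in vehicle and 600 RPKM with MA4-022-1, a log2 ratio of 0.25 and an interval of the RPKM ratio from 1.15 to 1.22. OAZ2 was 0.0411 of OAZ1 in vehicle and 0.0794 with MA4-022-1, so OAZ1 made up most antizyme RNA in both libraries despite the larger ratio of OAZ2.

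AZIN1 (chr8:103838585-103990104) stood at 123 RPKM in vehicle and 147 RPKM with MA4-022-1 over its 3 rows, a log2 ratio of 0.25. The rows went apart. The main row stood at 116 RPKM in vehicle and 144 RPKM with MA4-022-1, whereas the others stood at 3.84 and 2.29 RPKM and at 2.90 and 0.359 RPKM. All 3 rows carry the same locus and symbol, in a locus of 9 rows in all, so the transcripts behind the lower ones are not known. Relative to the sum of OAZ1 and OAZ2, AZIN1 was nearly level, at 0.233 in vehicle and 0.227 with MA4-022-1.

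Ratios of members within 1 library do not depend on how the libraries were scaled against each other. They compare messages only, not enzymes or polyamines. SAT1 was 0.384 of ODC1 by RPKM in vehicle and 3.09 times ODC1 with MA4-022-1, an 8.05-fold difference between libraries. Against SMS the SAT1 ratio was 1.14 in vehicle and 9.05 with MA4-022-1, and against AMD1 0.249 and 1.42. Against SRM it was 4.30 in vehicle and 28.2 with MA4-022-1. The vehicle library thus held less SAT1 than ODC1 or AMD1 RNA, and the MA4-022-1 library more SAT1 than any of the 4 synthesis genes. Set against all 4 together, SAT1 was 0.129 of their sum in vehicle and 0.851 with MA4-022-1. ODC1 was 0.901 of the sum of OAZ1 and OAZ2 in vehicle and 0.368 with MA4-022-1. RPKM is per length, so these ratios compare RNA molecules only as far as the length used for each gene is right.

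**Figure D2:**
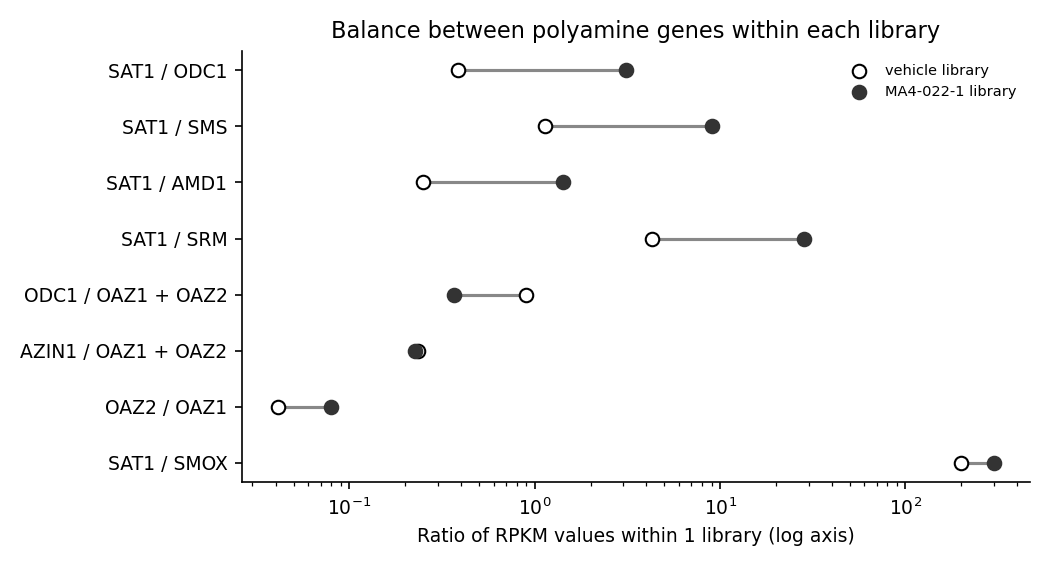
Ratios of RPKM between members within a library on a log axis, open circles for vehicle and filled circles for MA4-022-1. The SAT1 to ODC1 ratio lies at 0.384 and 3.09, while that of AZIN1 to the sum of OAZ1 and OAZ2 lies at 0.233 and 0.227.

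Genes that feed the pathway were described from lists written from general knowledge. In the list of ornithine and arginine supply, 8 of 12 listed genes were expressed, with a median log2 ratio of -0.95. In this list 3 genes lay past 2-fold on the lower side and 0 on the higher side, beside 9.56% and 7.73% of all expressed genes, shares that apply to the counts of the lists below as well. SLC25A15, the mitochondrial ornithine carrier, stood at 33.9 RPKM in vehicle and 10.3 RPKM with MA4-022-1, or 3.08-fold lower. ARG2, the mitochondrial arginase that makes ornithine, stood at 220.0 RPKM in vehicle and 115 RPKM with MA4-022-1. SLC7A1, an arginine transporter, stood at 20.8 RPKM in vehicle and 10.1 RPKM with MA4-022-1. ARG2 and SLC7A1 were short of 2-fold, at log2 ratios of -0.93 and -0.97. The row of ASL, which makes arginine, is joined with CRCP and a clone name, and stood at 148 and 71.0 RPKM. That joint row is 1 of the 3 counted past 2-fold, at a log2 ratio of -1.05. The level of ASL itself is not known. The third gene past 2-fold, SLC7A2, was chosen after its values were seen and stood at 3.18 and 0.532 RPKM. A ratio below 0 was found in 6 of the 8 expressed genes of the list, beside 51.1% of all expressed genes and 55.8% of the protein-coding ones, and the exceptions were OAT and ASS1, at log2 ratios of 0.46 and 0.25.

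The methionine cycle supplies S-adenosylmethionine to AMD1, and the salvage route recovers methylthioadenosine, the by-product of SRM and SMS. All 16 listed genes had rows that counted as expressed, with a median log2 ratio of -0.40. Below 0 were 12 of them, beside 51.1% of all expressed genes and 55.8% of the protein-coding ones. Within 2-fold lay 15, with 0 past it on the higher side and 1 on the lower, beside 7.73% and 9.56% of all expressed genes. Among the 16, 3 were read from joint rows (MTAP, MRI1 and IL4I1), so their own levels are not known. Without joint rows the median was -0.35. ENOPH1, a salvage enzyme, stood at 64.5 RPKM in vehicle and 36.9 RPKM with MA4-022-1. AHCY, which clears S-adenosylhomocysteine, stood at 227 RPKM in vehicle and 139 RPKM with MA4-022-1. MTR, methionine synthase, had a log2 ratio of -0.67, and MTAP, which cleaves methylthioadenosine, one of -0.57 in a row joined with a clone. The 1 gene past 2-fold was MAT1A, chosen after its values were seen, at 1.68 and 0.257 RPKM.

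Spermidine is the donor of hypusine, a modified lysine found in eIF5A. EIF5A stood at 253 RPKM in vehicle and 93.6 RPKM with MA4-022-1, 2.69-fold lower, and its relative EIF5A2 at 7.48 and 10.4 RPKM. DHPS, which performs the first step of hypusine synthesis, stood at 111 and 132 RPKM and DOHH, which performs the second, at 3.61 and 1.81 RPKM. The median of these 4 genes was -0.23 with 1 of them past 2-fold, and it turned to 0.26 when 5 RPKM was required, which drops DOHH.

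Genes linked to polyamine transport showed little common direction, with 8 of 13 expressed and a median of 0.039, which turned to -0.070 with equal sums. Among the 8, SLC12A8 was read from a row joined with ZNF148, so its own level is not known. GPC1, a glypican, stood at 4.64 RPKM in vehicle and 9.79 RPKM with MA4-022-1. The lysosomal and endosomal polyamine pumps ATP13A2 and ATP13A3 stood at 5.60 and 5.94 RPKM and at 106 and 90.8 RPKM. SLC3A2, an exporter subunit, stood at 450.3 and 338 RPKM.

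In the list of other enzymes and antizymes, 8 of 9 listed genes were expressed. All 8 lay within 2-fold, whereas 7.73% of all expressed genes were past it on the higher side and 9.56% on the lower. SATL1, chosen after its values were seen, lay within it only with the added 1 RPKM. It stood at 1.93 RPKM in vehicle and 4.52 RPKM with MA4-022-1. The list median was -0.11, and it turned to 0.0050 with the housekeeping median set to 0. Among the 8, ALDH4A1 was read from a joint row, so its own level is not known. SAT2, a relative of SAT1, was 1.93-fold higher, at 28.5 RPKM in vehicle and 56.0 RPKM with MA4-022-1. OAZ3, the testis antizyme, stood at 19.2 and 11.0 RPKM, opposite in direction to OAZ1 and OAZ2. ALDH9A1, which oxidises aminobutyraldehyde from putrescine breakdown, stood at 698 and 1051 RPKM. ALDH18A1, which makes the precursor of proline and ornithine, stood at 42.1 and 30.4 RPKM.

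**Figure D3:**
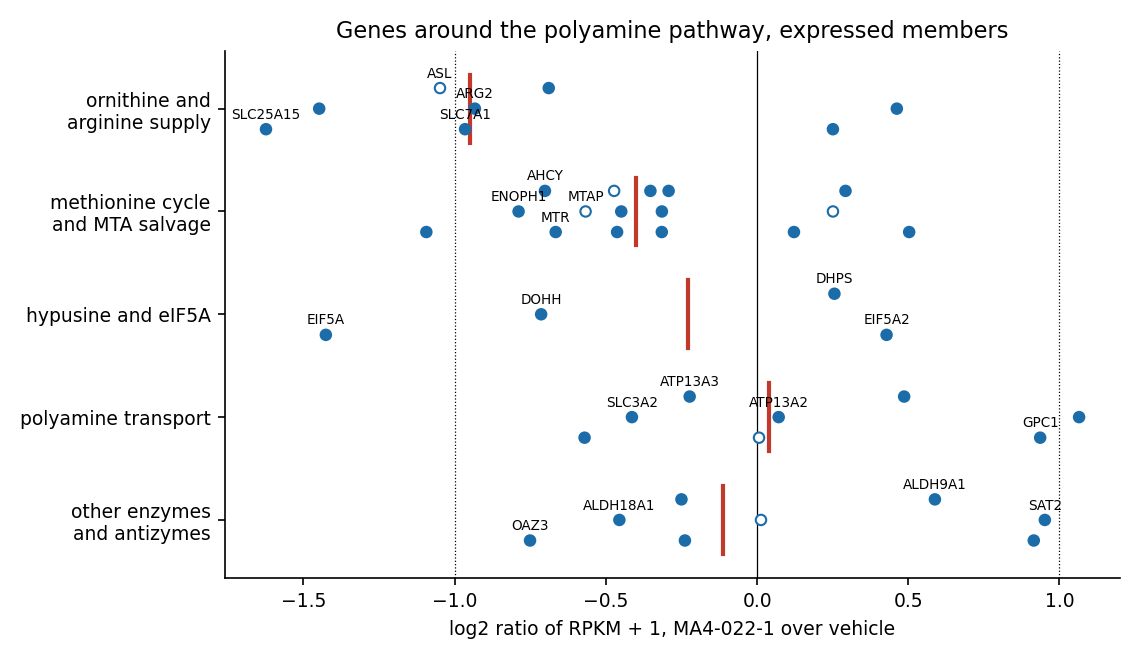
Log2 ratio of RPKM + 1, MA4-022-1 over vehicle, for each expressed gene of the 5 lists, with open circles for joint rows, red bars for list medians and dotted lines at 2-fold. The supply list has the lowest median, at -0.95, and the transport list lies around 0.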

How the data were processed

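RNA of 1 vehicle and 1 MA4-022-1 library of C4-2B cells was compared. The submitters' processing notes name hg19, Cufflinks 2.2.1 and TopHat2 2.0.13. The authors deposited RPKM per gene, the unit per the file headers, in tables of 62271 rows; strand use and annotation are not stated there. Of these rows, 2751 had no symbol and were left out. Rows whose symbol, or 1 part of a joint symbol, was a member were summed. Locus starts were made 1-based by adding 1. This rests on 843 processed pseudogenes that were picked for a length within 1 base of end minus start. Of them, 836 had a length equal to it. Because of that choice the count bears only on how starts were numbered.

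Short RNA symbols were left out of counts over all genes. A gene counted as expressed at 1 RPKM in either library. Values are log2 of RPKM + 1, without a test, since each group held 1 library. Whole steps of low values in these pseudogenes (197 of 199 values in vehicle and 151 of 153 with MA4-022-1 within 2% of a whole read) gave the depth. Reads per member then used the median length of protein-coding transcripts in the GENCODE release 29 basic set, and exact binomial (Clopper-Pearson) intervals at 95%. The depth fit and the count of genes past 2-fold were tested on simulated data, the intervals were not. The simulated data held counting error only and no spread between cultures. They therefore cannot tell how many genes would pass 2-fold between cultures given the same treatment. The members and lists were chosen with earlier results of these data known. All members are named, and from each related list up to 4 genes of largest ratio, those at 5 RPKM or more first, with MYC as context. AZIN2 and AOC1 matched no row by a unique name and were not analysed here. One value of a related list is not reported here. Promoter windows are from RefSeq, transcripts from GENCODE. Python 3.11.15, numpy 2.4.6, pandas 2.3.3, scipy 1.17.1 and matplotlib 3.10.9 were used. Alternatives were pseudocounts, filters, scalings, row handling, fold thresholds and means.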

Additional observations from a re-analysis of the deposited data

How the results depend on the processing

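All 88 values of single members under the alternatives kept their sign, but this was largely fixed in advance. Pseudocounts and filters cannot turn a sign. The scalings were at most 0.12 in log2, below the smallest member ratio, 0.25 for OAZ1. The distance between the synthesis and catabolism medians ranged from -2.25 to -1.11. Setting the housekeeping median to 0 shifted all log2 ratios by 0.12 and gave medians of -0.70 for synthesis and 0.38 for regulators. Equal sums shifted them by -0.12 and gave -0.94 and 0.14, with 2 members at least 2-fold lower, ODC1 and SMS. At 1.5-fold 3 members were lower, and at 3-fold 1 was higher. The catabolism median was 0.33 with a pseudocount of 5 and 1.43 with joined rows left out. The regulator median was 0.31 with the highest row of each gene alone and 0.55 as a mean. Related-list medians turned sign in 3 of 45 cases: hypusine genes to 0.26 at 5 RPKM, transport genes to -0.070 with equal sums and other enzymes to 0.0050 with the housekeeping scale. The causes were not tested. No paired analysis was possible because each group had 1 library, and no library could be left out. Depth limits SMOX most.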

Other observations

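SNORA80B is a small nucleolar RNA that GENCODE places inside ODC1 on the same strand and outside its exons. Its deposited values went the other way from those of its host. SNORA80B stood at 18.0 RPKM in vehicle and 30.6 RPKM with MA4-022-1, a log2 ratio of 0.74, while ODC1 stood at 474 and 238 RPKM. It was chosen after its values were seen. Length-scaled values of such short RNAs are uncertain, and the difference from ODC1 has no replicate check.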
